A study of Mus musculus with 48 samples.

Results

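H3K27me3 was described at 9 genes that encode transcription factors of mature beta cells: Pdx1, Nkx6-1, Nkx2-2, Pax6, Isl1, Neurod1, Mafa, Insm1 and Rfx6. They were taken by gene symbol from a deposited table of 24466 genes, and all 9 symbols were found once. The rule matches symbols and uses no value of the table, but the 9 genes, known for their roles in beta cells, were chosen with earlier results of these data known. The table covers mature beta cells, sorted at 8 weeks of age as RFP-positive cells of Ins-RFP mice, in which a red fluorescent reporter marks insulin-producing cells. It also covers hepatocytes of 8-week-old adults and definitive endoderm, sorted from E8.25 embryos with the ENDM1 surface antibody. The embryos came from superovulated B6C3F1 females bred to C3H, Pdx1-eGFP or Ins-RFP males. The labels give neither the genetic background of the adult mice nor the number of animals behind each library. The series names ENDM1-positive endoderm as the baseline for some of its analyses.

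H3K27me3 is the trimethylation of histone H3 at lysine 27, which Polycomb repressive complex 2 places at silent genes. Many developmental regulators carry broad Polycomb domains in cells of other lineages and are free of them where they are active. In the pancreas, Pdx1 acts from the first organ bud onward, Nkx6-1, Nkx2-2, Pax6, Neurod1, Insm1, Isl1 and Rfx6 direct the formation or identity of endocrine cells, and Mafa activates insulin and other genes of the mature beta cell. Several of the same factors also work in neurons.

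Each gene has 1 value per cell type, a ratio of H3K27me3 ChIP to input. The labels list 2 ChIP and 2 input libraries for each cell type, and the sources used here do not state how these were combined. No value therefore has a replicate error, no test between cell types was possible, and the read depth behind the ratios is unknown. The authors quantile-normalized the 3 cell types, so every cell type has the same distribution, with a median ratio of 0.711 and a 90th percentile of 2.14, and a ratio states the place of a gene within its own cell type. In such bulk profiles, a mark on fewer cells and less of the mark in each cell cannot be told apart. Differences are given as log2(ratio + 0.0711), the added constant being 10 times below the median, and a gene was counted as lower or higher at a difference of 1 or more in size, which is 2-fold here.

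The 9 genes lay low in mature beta cells and mostly near the top in both other cell types. In the top 10% of genes, at a ratio of 2.14 or more, stood 0 of 9 in mature beta cells, 8 of 9 in adult hepatocytes and 7 of 9 in definitive endoderm, where 10.0% of all genes do so in each cell type, as the cutoff fixes. Their median ratio was 0.36 in mature beta cells, 5.72 in adult hepatocytes and 6.18 in definitive endoderm. In mature beta cells against definitive endoderm, 8 of 9 were lower, against 15.1% of all genes, and 0 were higher, against 14.1% of all genes. In mature beta cells against adult hepatocytes, 9 of 9 were lower and 0 higher, against 13.1% and 12.5% of all genes. In adult hepatocytes against definitive endoderm, 2 of 9 were lower and 1 was higher, against 13.3% and 12.8% of all genes. The median difference of the 9 genes in these comparisons was -4.16, -3.84 and -0.17, where that of all genes was -0.01, 0.04 and -0.03. Each pair of these comparisons shares the values of 1 cell type. Dividing each cell type by its most frequent value moved the median difference of all genes to 0.38 in beta cells and in hepatocytes against endoderm, and to 0.02 in beta cells against hepatocytes. The share of higher genes among those past the threshold was then 70.9%, 73.4% and 47.9%, against 48.3%, 48.9% and 48.9% before. After this division 7 of 9 genes were lower and 0 higher in beta cells than in endoderm, against 9.62% and 23.4% of all genes, with Rfx6 at -0.81. Against hepatocytes 9 of 9 were lower and 0 higher, where 13.4% and 12.3% of all genes were.

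**Figure D1:**
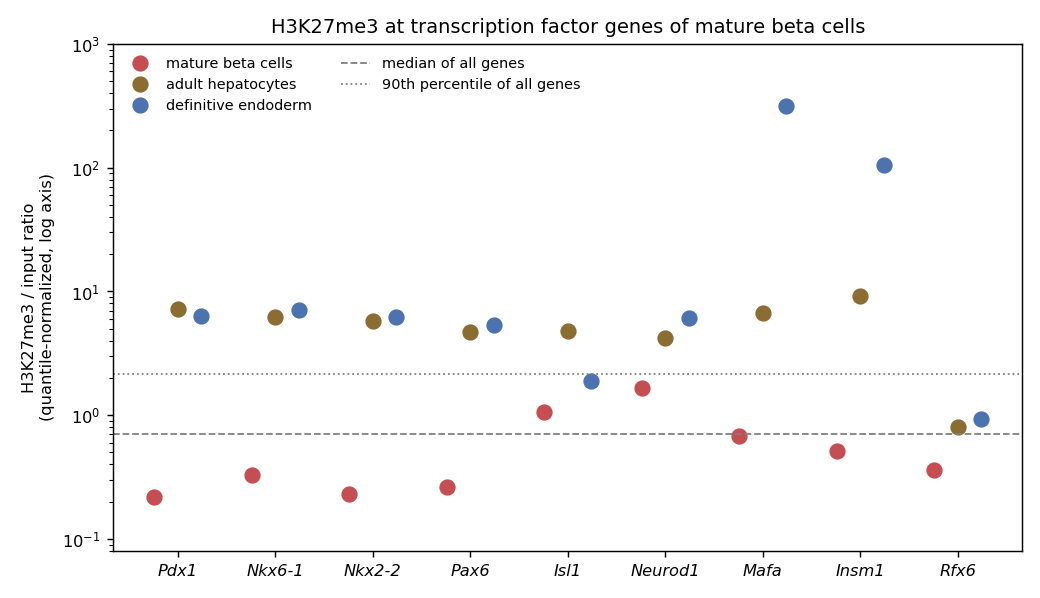
H3K27me3 ratio to input (log axis) of the 9 transcription factor genes, with 1 point per cell type and no replicate error. All 9 beta cell points lie below the 90th percentile (dotted line, 2.14), and the endoderm points of Mafa and Insm1 stand at 317 and 105.

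Pdx1, Nkx6-1, Nkx2-2 and Pax6, all homeodomain factors, had nearly the same profile, which Isl1, also a homeodomain factor, did not share. Pdx1, the factor without which no pancreas forms, had a ratio of 0.217 in mature beta cells, 7.18 in adult hepatocytes and 6.39 in definitive endoderm. Nkx2-2, which holds beta cell identity, had 0.229 in mature beta cells, 5.72 in adult hepatocytes and 6.18 in definitive endoderm. The beta cell value of each was thus far below the pair of other values, which lay close together. Pax6, an activator of hormone genes in all islet cells, had 0.265 in mature beta cells, 4.74 in adult hepatocytes and 5.34 in definitive endoderm. Nkx6-1, needed for beta cell formation and insulin secretion, had 0.327 in mature beta cells, 6.27 in adult hepatocytes and 7.06 in definitive endoderm. In percentiles of their own cell type, these genes stood at 6.2 (Pdx1), 6.7 (Nkx2-2), 8.0 (Pax6) and 11.3 (Nkx6-1) in mature beta cells, and between 97.4 and 98.9 in the other cell types. Against endoderm, the log2 differences in beta cells were -4.49 for Pdx1, -4.38 for Nkx2-2, -4.16 for Nkx6-1 and -4.01 for Pax6. Against hepatocytes they were -4.65 for Pdx1, -4.27 for Nkx2-2, -3.99 for Nkx6-1 and -3.84 for Pax6. Hepatocytes and endoderm differed by 0.17 at Pdx1, -0.17 at Nkx6-1, -0.11 at Nkx2-2 and -0.17 at Pax6, all within the threshold, and the negative ones turn positive after division by the most frequent value. For scale, 0.638% of all genes had a beta cell minus endoderm difference at or below that of Pdx1, and 0.907% one at or below that of Pax6.

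Promoter windows of RefSeq on build GRCm38.p6, from 250 bases before to 50 after each transcription start, were found for 7 of the 9 genes, all but Mafa and Insm1. The 250 bases before the start are shown for 4 genes that differ in their marks: Pdx1 and Nkx2-2, with the lowest beta cell ratios, Neurod1, with the highest, and Rfx6, with the lowest ratios in hepatocytes and endoderm. The CpG dinucleotides, which are known to recruit Polycomb complexes when dense, are in capitals. The sources used here do not state over which region a gene was measured, and it may not be this window. The windows lie at chr5:147269847-147270096 on the plus strand for Pdx1, chr2:147186403-147186652 on the minus strand for Nkx2-2, chr2:79456637-79456886 on the minus strand for Neurod1, and chr10:51685268-51685517 on the plus strand for Rfx6.
Pdx1: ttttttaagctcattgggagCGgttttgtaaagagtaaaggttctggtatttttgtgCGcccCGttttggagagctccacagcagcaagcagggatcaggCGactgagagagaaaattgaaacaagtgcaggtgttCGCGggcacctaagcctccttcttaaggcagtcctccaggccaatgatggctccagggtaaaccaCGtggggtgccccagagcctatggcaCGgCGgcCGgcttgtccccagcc
Nkx2-2: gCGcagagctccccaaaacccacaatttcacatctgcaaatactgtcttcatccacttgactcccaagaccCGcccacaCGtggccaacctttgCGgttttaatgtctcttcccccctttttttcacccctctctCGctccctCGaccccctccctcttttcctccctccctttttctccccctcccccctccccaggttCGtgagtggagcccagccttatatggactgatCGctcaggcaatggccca
Neurod1: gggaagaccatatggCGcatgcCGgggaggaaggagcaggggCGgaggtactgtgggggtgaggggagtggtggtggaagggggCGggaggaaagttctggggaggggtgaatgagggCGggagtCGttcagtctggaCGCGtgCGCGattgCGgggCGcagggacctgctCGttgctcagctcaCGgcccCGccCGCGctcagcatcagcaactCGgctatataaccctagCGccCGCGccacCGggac
Rfx6: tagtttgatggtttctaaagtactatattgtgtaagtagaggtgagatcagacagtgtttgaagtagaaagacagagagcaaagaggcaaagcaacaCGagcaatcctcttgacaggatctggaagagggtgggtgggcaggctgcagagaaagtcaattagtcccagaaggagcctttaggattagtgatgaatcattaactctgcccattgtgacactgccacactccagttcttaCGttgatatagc
The printed stretches hold 10 CpG at Pdx1, 8 at Nkx2-2, 22 at Neurod1 and 2 at Rfx6. Over the full 300 bases, the ratio of observed to expected CpG was 0.16 at Rfx6, 0.48 at Pdx1, 0.70 and 1.00 at the pair of Pax6 starts, 0.79 at Nkx2-2, 0.84 at Neurod1, 1.05 at Isl1 and 1.18 at Nkx6-1. The CpG-poor window of Rfx6 belongs to the gene with the lowest ratios in hepatocytes and endoderm, and 83.7% of the 21004 windows compared had an observed to expected ratio at or above it. Pdx1 had a window of middling CpG content beside high H3K27me3 in those cell types. At or above an observed to expected ratio of 0.6, a usual bound for CpG islands, stood 71.4% of the 7 genes, against 50.9% of the 17410 genes with a window. Genes in the top 10% of the ratio reached that bound less often, with 30.3% in beta cells, 39.5% in hepatocytes and 43.6% in endoderm. At this cutoff, a high ratio thus did not go with CpG-rich windows. Other cutoffs were not examined. Both motifs searched are common in promoters. The homeodomain core TAAT, on either strand, was in 5 of 8 windows and in 51.6% of all windows, and the E-box CANNTG, which reads the same on both strands, in 6 of 8 and in 69.2%. Matches that overlap were all counted.

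Mafa and Insm1 had the highest endoderm ratios of the 9. Mafa had 0.684 in mature beta cells, 6.73 in adult hepatocytes and 317 in definitive endoderm. Insm1, a zinc finger factor of endocrine and neuroendocrine differentiation, had 0.516 in mature beta cells, 9.11 in adult hepatocytes and 105 in definitive endoderm. Both were in the top 10% in hepatocytes and endoderm, and both lay in the middle of the beta cell distribution, at percentiles 48.6 for Mafa and 33.1 for Insm1. Their beta cell minus endoderm differences of -8.71 and -7.48 were the lowest of the 9, and their hepatocyte minus endoderm differences of -5.54 and -3.52 were the only ones at or below -1. Ranks give another picture of hepatocytes against endoderm, because these endoderm values lie in a thin upper tail. Mafa stood at percentile 98.7 in hepatocytes and 99.9 in endoderm, and Insm1 at 99.3 in hepatocytes and 99.7 in endoderm. With a threshold of 25 percentile points, 0 of 9 genes were lower and 0 higher in hepatocytes than in endoderm, against 16.1% and 15.5% of all genes. On that scale beta cells were lower than endoderm at 7 of 9, against 17.9% of all genes, and lower than hepatocytes at 8 of 9, against 15.3%, with 0 higher in either, against 17.8% and 14.9%. The tail itself differed between cell types in what it held. Above a ratio of 50 were 90 genes in each cell type, of which microRNA, snoRNA and scaRNA genes made up 98.9% in beta cells, 98.9% in hepatocytes and 45.6% in endoderm.

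Neurod1 and Isl1 had the highest beta cell ratios of the 9, both above the median of all genes. Neurod1, a basic helix-loop-helix activator of the insulin gene, had 1.65 in mature beta cells, 4.18 in adult hepatocytes and 6.15 in definitive endoderm. It stood at percentile 83.7 in beta cells, and its differences were -1.86 against endoderm and -1.31 against hepatocytes. In percentile points these differences were -14.8 and -13.2, under the threshold of 25. Isl1, a LIM homeodomain factor of islet cells, had 1.06 in mature beta cells, 4.77 in adult hepatocytes and 1.88 in definitive endoderm. On the log2 scale the hepatocyte value was the one that stood apart, and beta cells and endoderm differed by less than the threshold, at -0.79. In percentile points beta cells lay further from endoderm, at -19.7, than hepatocytes did, at 10.3, both under 25. Beta cells against hepatocytes differed by -30.0 points. Isl1 was the 1 gene of the 9 that was higher in hepatocytes than in endoderm, by 1.31, and its beta cell minus hepatocyte difference was -2.10. Both genes were below the 90th percentile in beta cells, at percentile 67.5 for Isl1.

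Rfx6, a winged-helix factor that acts upstream in endocrine development, was not among the marked genes of any cell type. Its ratio was 0.36 in mature beta cells, 0.807 in adult hepatocytes and 0.923 in definitive endoderm, around the median of all genes in hepatocytes and endoderm. Its differences in beta cells, -1.21 against endoderm and -1.03 against hepatocytes, were close to the threshold of 1. With a constant 10 times larger they were -0.61 and -0.50, and neither counted as lower. By rank, Rfx6 stood at percentile 13.7 in mature beta cells, 54.8 in adult hepatocytes and 61.2 in definitive endoderm. Its beta cell differences were thus -47.5 percentile points against endoderm and -41.2 against hepatocytes, and both counted as lower on that scale.

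To see how the beta cell values compare with those of similarly marked genes, all 1285 genes in the top 10% of both hepatocytes and endoderm were taken, and 7 of the 9 are among them. Most of the 1285 were also high in beta cells, with a median percentile of 93.3. Below the 25th percentile in beta cells were 4 of the 7, against 9.96% of the 1285, and below the 50th were 6 of the 7, against 17.1%. Counted from the lowest beta cell ratio, Pdx1 was in place 51, Nkx2-2 in place 54, Pax6 in place 68 and Nkx6-1 in place 85 of 1285. Insm1 was in place 150, Mafa in place 212 and Neurod1 in place 440. With microRNA, snoRNA and scaRNA genes left out, 1238 genes remain and Pdx1 was in place 35. The 90th percentile was chosen with the values of the 9 genes known, so these places are a description.

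**Figure D2:**
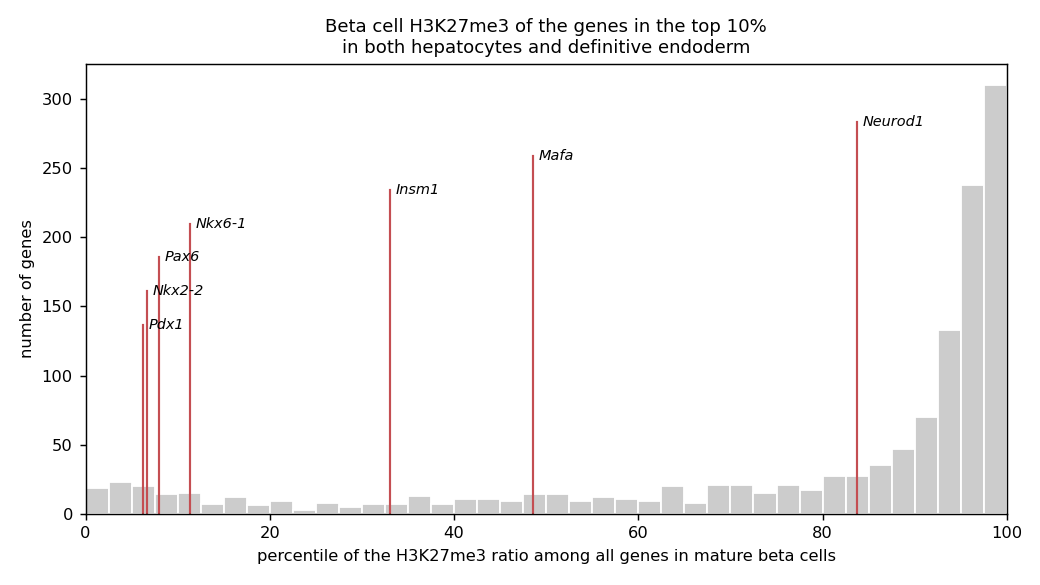
Number of genes by percentile of the H3K27me3 ratio in mature beta cells (bins of equal width, grey), for the 1285 genes in the top 10% of both adult hepatocytes and definitive endoderm. Red lines mark the 7 beta cell factors among them, with Pdx1, Nkx2-2, Pax6 and Nkx6-1 below the 25th percentile and Neurod1 at 83.7; line heights only separate the labels.

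Paralogs of the 9 factors, genes of the same families that mostly act in other tissues, mostly had high ratios in beta cells. Over 50 such genes the median ratio was 3.78 in mature beta cells, 3.84 in adult hepatocytes and 4.15 in definitive endoderm, and 36, 33 and 35 of the 50 were in the top 10%. In beta cells against hepatocytes, 3 of the 50 paralogs were lower and 5 higher, against 13.1% and 12.5% of all genes, and their median difference was -0.07. In each of the 9 families the beta cell factor had the lowest difference of its family in that comparison, by margins that were small for Rfx6 (-1.03, against -0.87 for Rfx2), Neurod1 (-1.31, against -0.94 for Neurog3) and Isl1 (-2.10, against -1.67 for Lmx1b). Of 30 paralogs in the top 10% of both hepatocytes and endoderm, 27 were also in the top 10% in beta cells and 0 were below the median. The closest pairs show this contrast. Nkx6-2, a regulator of myelinating glia, had 10.7 in mature beta cells, 7.88 in adult hepatocytes and 152 in definitive endoderm, and Nkx6-3, a stomach factor, had 3.61 in mature beta cells, 3.94 in adult hepatocytes and 3.16 in definitive endoderm. Isl2, the motor neuron relative of Isl1, had 6.84 in mature beta cells, 7.28 in adult hepatocytes and 7.60 in definitive endoderm. Both Nkx6 relatives and Isl2 were therefore in the top 10% in all 3 cell types. Insm2 had 3.60 in mature beta cells, 5.46 in adult hepatocytes and 10.0 in definitive endoderm. Pax4, which acts briefly in beta cell precursors, had 1.25 in mature beta cells, 2.06 in adult hepatocytes and 1.60 in definitive endoderm.

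Against endoderm the families gave a less uniform picture, and the beta cell factor had the lowest difference of its family in 4 of the 9. In beta cells 14 of the 50 paralogs were lower and 3 higher, against 15.1% and 14.1% of all genes. Their median difference was -0.19, which turns to 0.23 when each cell type is divided by its most frequent value. Of the 14 lower paralogs, 8 had endoderm ratios above 50, in the same thin tail as Mafa and Insm1. These were Gsx1, Gsx2, Nkx6-2, Nkx2-4, Neurod2, Neurog1, Neurog2 and Atoh1, with ratios of 5.62 to 10.7 in beta cells, 5.15 to 11.6 in hepatocytes and 89.1 to 234 in endoderm, and none was lower in beta cells than in hepatocytes. By percentile points, 3 of the 50 paralogs were lower and 3 higher in beta cells than in endoderm, against 17.9% and 17.8% of all genes. Maf, a relative of Mafa, had 4.63 in mature beta cells, 0.262 in adult hepatocytes and 4.45 in definitive endoderm. Mafa was thus lowest in beta cells and Maf lowest in hepatocytes.

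**Figure D3:**
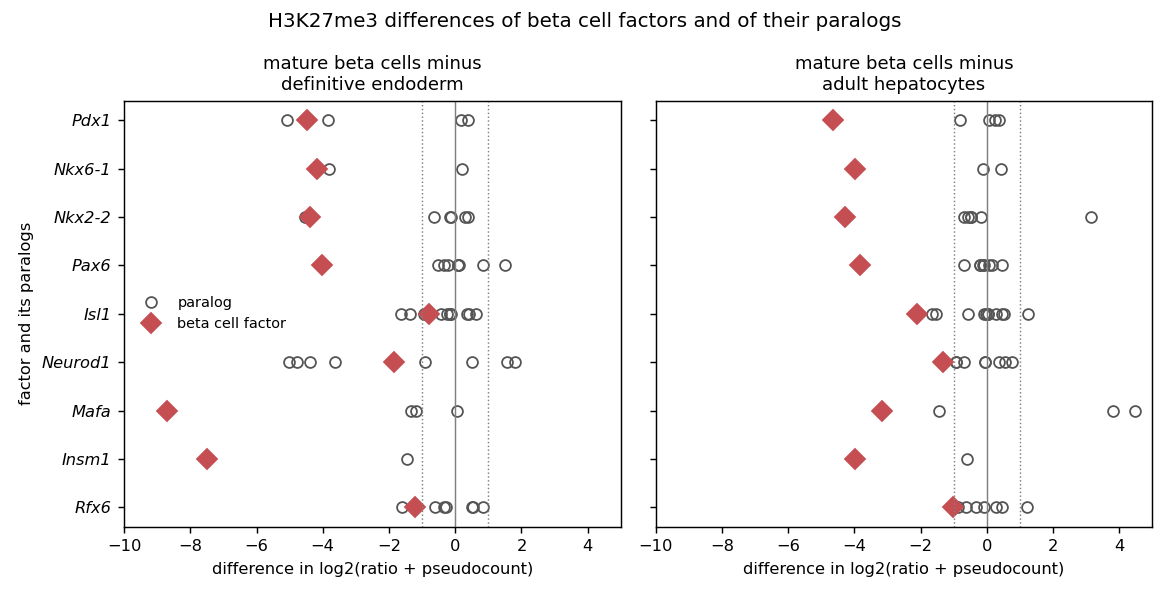
Differences in log2(ratio + 0.0711) of each beta cell factor (red diamonds) and of its paralogs (open circles), for mature beta cells minus definitive endoderm (left) and minus adult hepatocytes (right); dotted lines mark -1 and 1. In the right panel each diamond is the leftmost point of its family.

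Genes next to the 9 on the chromosome were compared as well, 2 coding genes on each side in the RefSeq order of GRCm38.p6. Of the 18 nearest neighbours, 3 were lower and 2 higher in beta cells than in endoderm, and 4 were lower and 0 higher than in hepatocytes, with median differences of -0.42 and -0.22. Over all 36 neighbours, 6 were lower and 5 higher than in endoderm, and 6 lower and 4 higher than in hepatocytes, with medians of -0.23 and -0.11. Of all genes, 15.1% were lower and 14.1% higher than in endoderm, and 13.1% lower and 12.5% higher than in hepatocytes. Pdx1 lies between homeobox genes that are themselves marked. Gsx1, a brain factor, had 6.67 in mature beta cells, 11.6 in adult hepatocytes and 229 in definitive endoderm, and Cdx2, a factor of the intestine, had 5.82 in mature beta cells, 5.54 in adult hepatocytes and 4.40 in definitive endoderm. Both neighbours were above percentile 98 in beta cells, where Pdx1 was at 6.2. Nkx2-2 lies between Nkx2-4, with 10.0 in mature beta cells, 11.3 in adult hepatocytes and 234 in definitive endoderm, and Pax1, with 4.84 in mature beta cells, 5.58 in adult hepatocytes and 6.95 in definitive endoderm. The next gene beyond Pax1, the endoderm and islet pioneer factor Foxa2, had 0.183 in mature beta cells, 0.676 in adult hepatocytes and 1.98 in definitive endoderm. Low beta cell ratios at Pdx1 and Nkx2-2 thus stood beside high ones at their nearest neighbours. Gsx1, Cdx2, Nkx2-4 and Pax1 are also among the paralogs above, so this contrast and that of the paralogs overlap. The neighbours of Pax6 (Rcn1 and Elp4) and of Neurod1 (Cerkl and Ppp1r1c) had ratios between 0.408 and 1.14 in every cell type. Cds1, next to Nkx6-1, was lower in beta cells together with it, with 0.555 in mature beta cells, 3.62 in adult hepatocytes and 1.31 in definitive endoderm.

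**Figure D4:**
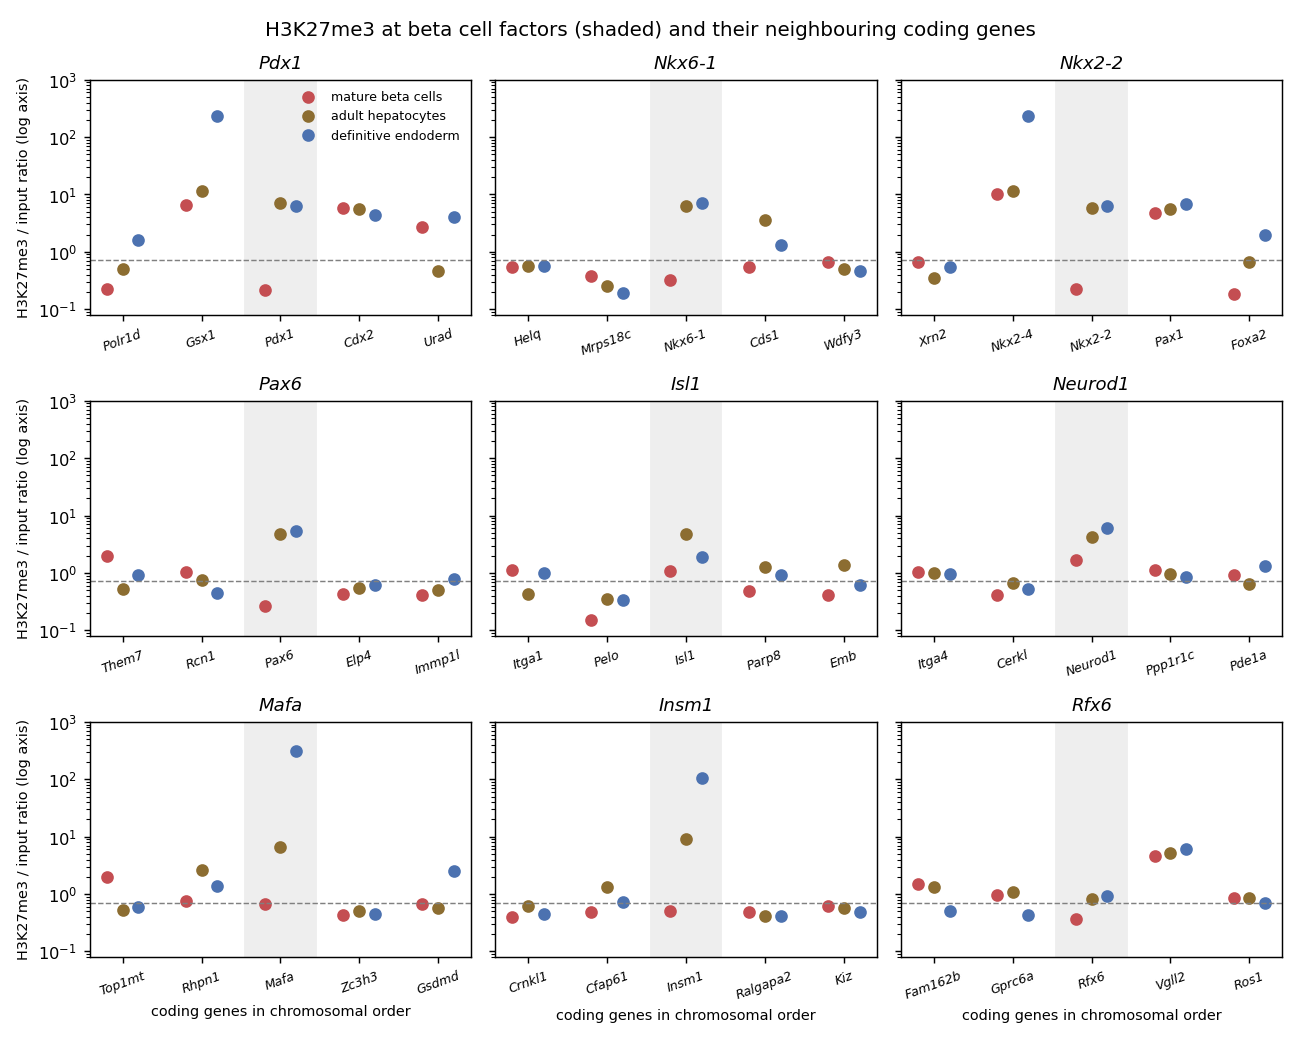
H3K27me3 ratio to input (log axis) of each beta cell factor (shaded) and of the 2 coding genes on either side, in chromosomal order and not to distance; colours mark the cell types and the dashed line the median of all genes, 0.711. In beta cells, Pdx1 and Nkx2-2 lie more than 10 times below their nearest neighbours.

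Genes that work with these factors were less uniform. Of 18 other transcription factors of the endocrine lineage, 8 were lower and 1 higher in beta cells than in endoderm, at a median of -0.77. The shares of all genes were 15.1% and 14.1%. Against hepatocytes 5 were lower and 3 higher, beside 13.1% and 12.5% of all genes, with a median of -0.51. Against endoderm, percentile points gave 4 lower and 1 higher, beside 17.9% and 17.8% of all genes. Division by the most frequent value gave 3 lower and 1 higher, beside 9.62% and 23.4%. With the constant 10 times larger, 1 of the 18 was lower than in hepatocytes, against 6.21% of all genes. Foxa2 was lower in both comparisons, with differences of -3.01 against endoderm and -1.56 against hepatocytes. Mnx1, a homeodomain factor of beta cells and motor neurons, had 1.44 in mature beta cells, 5.24 in adult hepatocytes and 5.65 in definitive endoderm. Sox9, a factor of pancreatic progenitors and ducts, was higher in beta cells, with 6.74 in mature beta cells, 3.34 in adult hepatocytes and 1.15 in definitive endoderm. Foxa1 had 6.35 in mature beta cells, 1.78 in adult hepatocytes and 72.6 in definitive endoderm, and so was lower against endoderm and higher against hepatocytes. Its endoderm value lies in the thin upper tail, and by percentile it stood at 98.6 in beta cells and 99.7 in endoderm. Among 20 genes of beta cell function, which include known targets of these factors, 15 were lower and 1 higher in beta cells than in endoderm. Against hepatocytes 12 were lower and 0 higher, and the median differences were -1.44 and -1.67. The shares of all genes were 15.1% and 14.1% against endoderm, and 13.1% and 12.5% against hepatocytes. With the constant 10 times larger, 7 were lower than in endoderm and 8 lower than in hepatocytes, against 6.85% and 6.21% of all genes. Their ratios elsewhere were lower than those of the 9 factors, with medians of 1.22 in hepatocytes and 1.14 in endoderm. Kcnj11, the pore of the ATP-sensitive potassium channel, had 0.413 in mature beta cells, 3.35 in adult hepatocytes and 3.31 in definitive endoderm. In this list its values were nearest to those of Pdx1, Nkx6-1, Nkx2-2 and Pax6. Ins1 was the exception, higher against endoderm by 3.79, with 1.56 in mature beta cells, 1.38 in adult hepatocytes and 0.0471 in definitive endoderm.

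Markers of other cells were checked in the same profiles, since a ratio at a silent marker gives the only view of cell identity here. The 7 hepatocyte markers had a median ratio of 1.51 in mature beta cells, 0.254 in adult hepatocytes and 0.604 in definitive endoderm. In beta cells 7 of 7 were higher than in hepatocytes, against 12.5% of all genes. The 7 markers of alpha, delta and PP cells had 4.20 in mature beta cells, 3.59 in adult hepatocytes and 2.65 in definitive endoderm. The 6 acinar markers had 2.97 in mature beta cells, 0.968 in adult hepatocytes and 1.55 in definitive endoderm. The 7 beta cell markers had 0.453 in mature beta cells, 1.04 in adult hepatocytes and 0.46 in definitive endoderm. The 3 duct markers did not share a direction. Krt19 had 0.39 in mature beta cells, 4.02 in adult hepatocytes and 2.00 in definitive endoderm. Spp1 had 0.288 in mature beta cells, 2.02 in adult hepatocytes and 0.511 in definitive endoderm. Sox9, given above, was higher in beta cells than in endoderm, by 2.48, and stood at percentile 98.7 in beta cells. Blood, endothelial and fibroblast markers had medians of 0.915, 1.39 and 2.09 in mature beta cells, 0.717, 1.21 and 1.54 in adult hepatocytes, and 1.09, 0.913 and 1.48 in definitive endoderm. Of 16 hepatic transcription factors, chosen as the counterpart of the beta cell set, 0 were lower and 13 higher in beta cells than in hepatocytes. The shares of all genes were 13.1% and 12.5%, and the median difference of the 16 was 1.59. With the constant 10 times larger, 6 were higher, against 5.06% of all genes, at a median of 0.82. The 5 endoderm markers had a median of 1.28 in mature beta cells, 2.69 in adult hepatocytes and 1.63 in definitive endoderm. The part of other cell types in the results was not tested.

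The genes most like the 9 were sought among 19813 named genes by the distance of their 3 log2 values from the median profile of the 9, with 3 cell types as the only points. The nearest was Slc35d3, a solute carrier of the nucleotide sugar family, with 0.371 in mature beta cells, 6.97 in adult hepatocytes and 6.95 in definitive endoderm, at a distance of 0.33. Cryba2, a crystallin, followed at 0.40, then Pnmal2 at 0.40, Cecr6 at 0.57, Jph4 at 0.58, Zxdb at 0.63, Vgf, a secreted peptide precursor of neurons and endocrine cells, at 0.65, and Fbxl16, Zxda and Tmem198 at 0.71, 0.71 and 0.74. Pdx1, Nkx6-1, Nkx2-2 and Pax6 were about as close to each other, from 0.33 between Pdx1 and Nkx2-2 to 0.68 between Pdx1 and Pax6. Isl1, also a homeodomain factor, was at least 2.29 from each of these 4. Mafa and Insm1 were 1.69 apart and at least 3.96 from each of the same 4. Paupar, a noncoding RNA gene transcribed near Pax6, was among the 3 genes nearest to Nkx2-2, with 0.142 in mature beta cells, 4.54 in adult hepatocytes and 5.53 in definitive endoderm. Mnx1 was among the 3 nearest to Neurod1, at 0.39.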

How the data were processed

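The series holds 48 libraries, of which 12 are H3K27me3 ChIP or input libraries of the 3 cell types, and the other 36 libraries, of H3K9me3, are not analysed here. The labels of the beta cell inputs write H3K72me3, read here as H3K27me3. The authors deposited 1 table of quantile-normalized H3K27me3 ratios, with 24466 genes and 1 column per cell type, and 0 columns were left unmapped. The values are linear, as read from their range. Bowtie2 2.1.0, bedtools and build mm9 are named in the submitters' processing notes. The sources used here do not state the region measured per gene, a constant added by the authors, or the way replicates and inputs were joined.

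From the deposited ratio, percentiles within each cell type and differences of log2(ratio + 0.0711) were computed with Python 3.11.15, numpy 2.4.6 and pandas 2.3.3. Of these steps, the call on the log2 difference of beta cells against endoderm was tested on simulated data, with changes planted in genes above the median. A limma fit was planned for replicate values and was not run, because each cell type has 1 value. All 9 genes were named and any of their paralogs could be, though 1 result is not reported here, with up to 4 genes of each other list, those with the largest differences of beta cells against endoderm, and the 10 genes nearest in profile. Values named from the neighbouring genes, from the upper tail and from genes marked in both other cell types were added after the data were seen. So were the order within families and Kcnj11 as nearest to Pdx1, Nkx6-1, Nkx2-2 and Pax6. The 9 genes and all lists were chosen with earlier results of these data known. Symbols were matched to RefSeq GRCm38.p6, 23415 directly and 947 by synonym, with 104 unmatched. This assembly differs from mm9 and was used for names, gene order and the promoter windows alone. The alternatives were a constant 10 times smaller or larger, percentiles, thresholds of 0.5 and 1.5, a filter on low values, division by the most frequent value and removal of small RNA genes.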

Additional observations from a re-analysis of the deposited data

Results flagged for a closer look

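At 2 of the 9 genes, mature beta cells and adult hepatocytes differed from definitive endoderm in opposite directions. Pdx1 had a log2 difference of -4.49 in beta cells and of 0.17 in hepatocytes, the second within the threshold of 1. Isl1 had a difference of -0.79 in beta cells, within the threshold, and of 1.31 in hepatocytes. Both contrasts use the same endoderm value, each cell type has 1 value, and the difference between the contrasts was not tested. Which genes are flagged depends on the sign of small hepatocyte differences. After division by the most frequent value, Nkx6-1, Nkx2-2, Pax6 and Rfx6 also had positive ones, of 0.25 to 0.35. Their beta cell differences against endoderm stayed negative.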

How the results depend on the processing

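Of the 9 genes, 7 to 9 were lower in mature beta cells than in definitive endoderm under the alternatives run, 7 to 9 were lower than in adult hepatocytes, and 0 were higher in either. The shares of all genes that were lower ran from 6.85% to 27.4% against endoderm and from 6.21% to 23.4% against hepatocytes. Those that were higher ran from 6.32% to 26.8% and from 5.06% to 25.7%. All 9 were lower than in endoderm only at a threshold of 0.5, where 27.4% of all genes were. Rfx6 and Neurod1 were the genes that left the counts, beside Isl1 against endoderm. The filter on low values kept 8 of the 9. In hepatocytes against endoderm, percentile points left 0 genes lower and 0 higher, and a threshold of 1.5 left 0 higher; the other counts stayed at 2 or 3 lower and 1 higher. At a cutoff of the 75th percentile 1 of the 9, Neurod1, was among the marked genes of beta cells. In that comparison of hepatocytes with endoderm, division by the most frequent value gave 0.29 at Nkx6-1, 0.35 at Nkx2-2, 0.29 at Pax6 and 0.25 at Rfx6, since the most frequent value is 0.918 in hepatocytes and 1.27 in endoderm. No paired analysis was possible because the table has 1 value per cell type, so leaving out a replicate and a replicate block could not be run. Read depth is unknown.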
